A study of Homo sapiens with 6 samples.

Results

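The genes described here are 44 members of the ATF4 amino acid response, chosen by name from the 58735 genes of the expression table: 6 transcription factors, 4 stress effectors, 4 enzymes of serine and asparagine synthesis, 6 enzymes of folate one-carbon metabolism, 4 enzymes of proline and cysteine synthesis, 7 amino acid transporters, 12 cytosolic tRNA synthetases under their older symbols and the tRNA export factor XPOT. They were measured by RNA-seq in HCT116SCs, which are CD44+CD326+ cells isolated with antibody-coated beads from HCT116, an established human colorectal cancer cell line, and grown as spheres in serum-free medium with EGF, bFGF and B27. In 3 libraries the cells had received negative control siRNA (NC) and in 3 libraries siRNA against PSCA (siPSCA), a surface antigen studied as a driver of cancer stem cell traits, with liposomal transfection and harvest after 48 h in both groups. All libraries come from 1 cell line, which of the study's PSCA siRNAs was sequenced is not given in the labels, and nothing says that the libraries came from separate cultures, so p-values measure only the spread between these libraries, which may be technical.

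ATF4 is a transcription factor whose mRNA is translated more when the initiation factor eIF2 is phosphorylated, by GCN2 when uncharged tRNA accumulates, by PERK in endoplasmic reticulum stress, and by related kinases. It then induces genes that make, import and charge amino acids, with C/EBP partners and further factors such as ATF5 and CHOP (DDIT3), and genes that damp the response, such as TRIB3 and PPP1R15A. Because control of ATF4 lies largely in translation and protein stability, its mRNA level does not measure its activity, and no protein was measured here. In tumour cells the same genes supply serine, asparagine, one-carbon units, cystine and charged tRNA for growth.

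A sequence shared by many of these promoters is the C/EBP-ATF element that ATF4 binds together with a C/EBP partner. Its core was searched as TGATGNAA, or TTNCATCA on the other strand, in RefSeq promoters of GRCh38.p14 that run from 250 bases before to 50 bases after the gene start. Of the 44 members, 36 matched a promoter, and 11 of these 36 (30.6%) held the core, against 1270 of all 35116 promoters (3.62%). By role, the core stood in 6 of 10 matched tRNA synthetase promoters, 2 of 6 transporter promoters, 1 of 4 promoters of stress effectors, 1 of 3 of serine and asparagine synthesis and 1 of 4 of folate enzymes. None of the 5 matched transcription factor promoters held it. The 6 synthetase windows and those of ASNS, CHAC1 and SLC3A2 are shown, each 5′ to 3′ on the gene's own strand, with the core in capitals. MTHFD1L and SLC7A1 also held the core, and their windows are not shown.
AARS, chr16:70289660-70289719, minus strand: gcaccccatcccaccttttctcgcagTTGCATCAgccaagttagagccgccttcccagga
CARS, chr11:3057392-3057451, minus strand: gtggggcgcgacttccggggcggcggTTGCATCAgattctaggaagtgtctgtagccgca
IARS, chr9:92293677-92293736, minus strand: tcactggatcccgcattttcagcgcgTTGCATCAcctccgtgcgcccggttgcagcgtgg
MARS, chr12:57488038-57488097, plus strand: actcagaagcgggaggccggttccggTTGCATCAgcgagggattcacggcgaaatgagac
TARS, chr5:33440941-33441000, plus strand: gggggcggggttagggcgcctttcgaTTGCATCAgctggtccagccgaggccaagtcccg
NARS, chr18:57621789-57621848, minus strand: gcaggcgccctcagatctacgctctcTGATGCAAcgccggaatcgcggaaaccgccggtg
ASNS, chr7:97872443-97872502, minus strand: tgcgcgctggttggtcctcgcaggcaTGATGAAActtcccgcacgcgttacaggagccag
CHAC1, chr15:40953236-40953295, plus strand: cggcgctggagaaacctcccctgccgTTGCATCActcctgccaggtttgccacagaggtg
SLC3A2, chr11:62881710-62881748, plus strand: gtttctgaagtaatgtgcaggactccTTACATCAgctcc
In 5 of the 6 synthetases the core reads TTGCATCA on the gene's strand, and in NARS the same letters lie on the other strand. A match describes these letters only. Binding was not measured, and elements outside the 300 bases were not searched.

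Reads on genes ranged from 16099716 to 17302219 per library. Expression is given as FPKM, fragment counts scaled by gene length and library size. The length counts all exonic bases of a gene, which can exceed those of its main transcript, so levels of different genes compare only roughly. PSCA itself had 4, 12 and 15 reads in NC and 9, 9 and 7 in siPSCA, so its mRNA was too scarce here to check the labels. Of 8 markers of colorectal epithelium and of the sort, 7 had a mean FPKM of at least 1, VIL1 being near 0, and their summed FPKM was 807 to 868 in NC and 861 to 890 in siPSCA. Within that sum the sort marker CD44 fell, from 82.6 to 60.7 FPKM (limma adjusted p = 0.00193). The adhesion gene CDH1 fell from 30.1 to 19.5 FPKM (adjusted p = 0.00134). Both stayed lower after GC adjustment (log2 fold changes -0.29 and -0.60). The keratins KRT8 and KRT19 rose (adjusted p = 0.00848 and 0.00589), a rise that GC adjustment turned to -0.02 and -0.27. CDX2 also rose, from 2.15 to 4.07 FPKM (adjusted p = 0.00387), and stayed higher after GC adjustment (0.39, adjusted p = 0.00737). EPCAM and KRT18 were not called (adjusted p = 0.199 and 0.165), but KRT18 was lower after GC adjustment (-0.44, adjusted p = 0.0224). The part of these marker changes in the results was not tested. None of the 6 leukocyte or 4 endothelial markers reached 1, and of 6 fibroblast markers COL1A1 alone did (summed FPKM of the list 3.49 to 5.74 in NC and 6.17 to 6.74 in siPSCA). One property of the libraries moved with the groups. Across all tested genes, which are not independent replicates, the difference between siPSCA and NC rose with the GC content of the transcript (Spearman rho 0.664). NC 3 also differed from NC 1 and NC 2 along GC content (rho -0.561). Leaving out NC 3 did not remove the trend between the groups (rho 0.603). Fold changes are therefore also given after the trend with GC content and gene length was taken out of each library, called GC-adjusted here. They are also given without NC 3 where that matters.

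Of the 44 members, 41 had a mean FPKM of at least 1 and were tested with limma on log2(FPKM + 1). NUPR1 had 2 to 6 reads per library, ALDH1L2 had 45 to 63, and CBS, the first enzyme of cysteine synthesis from homocysteine, had 0 in all NC libraries and 1, 3 and 0 in siPSCA. At an adjusted p under 0.05, 26 members (63.4%) changed, 10 higher and 16 lower in siPSCA, against 50.7% of all 13796 tested genes (26.6% higher and 24.2% lower). Without siPSCA 1 or siPSCA 2 the higher members were 6. When an unadjusted p under 0.05 and a log2 change of over 0.5 in size were asked for instead, 10 members passed, against 24.9% of all genes. The libraries of both groups did not overlap for 31 members, against 64.5% of all genes. The median log2 fold change of the 41 members was -0.06, with a range from -0.80 to 0.82, and that of all tested genes was 0.009. After GC adjustment 8 members were higher and 19 lower, against 21.2% and 18.4% of all genes, with a median of -0.17 for the members and 0.02 for all genes. Of the 20 members called with and without the adjustment, 19 kept their direction.

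**Figure D1:**
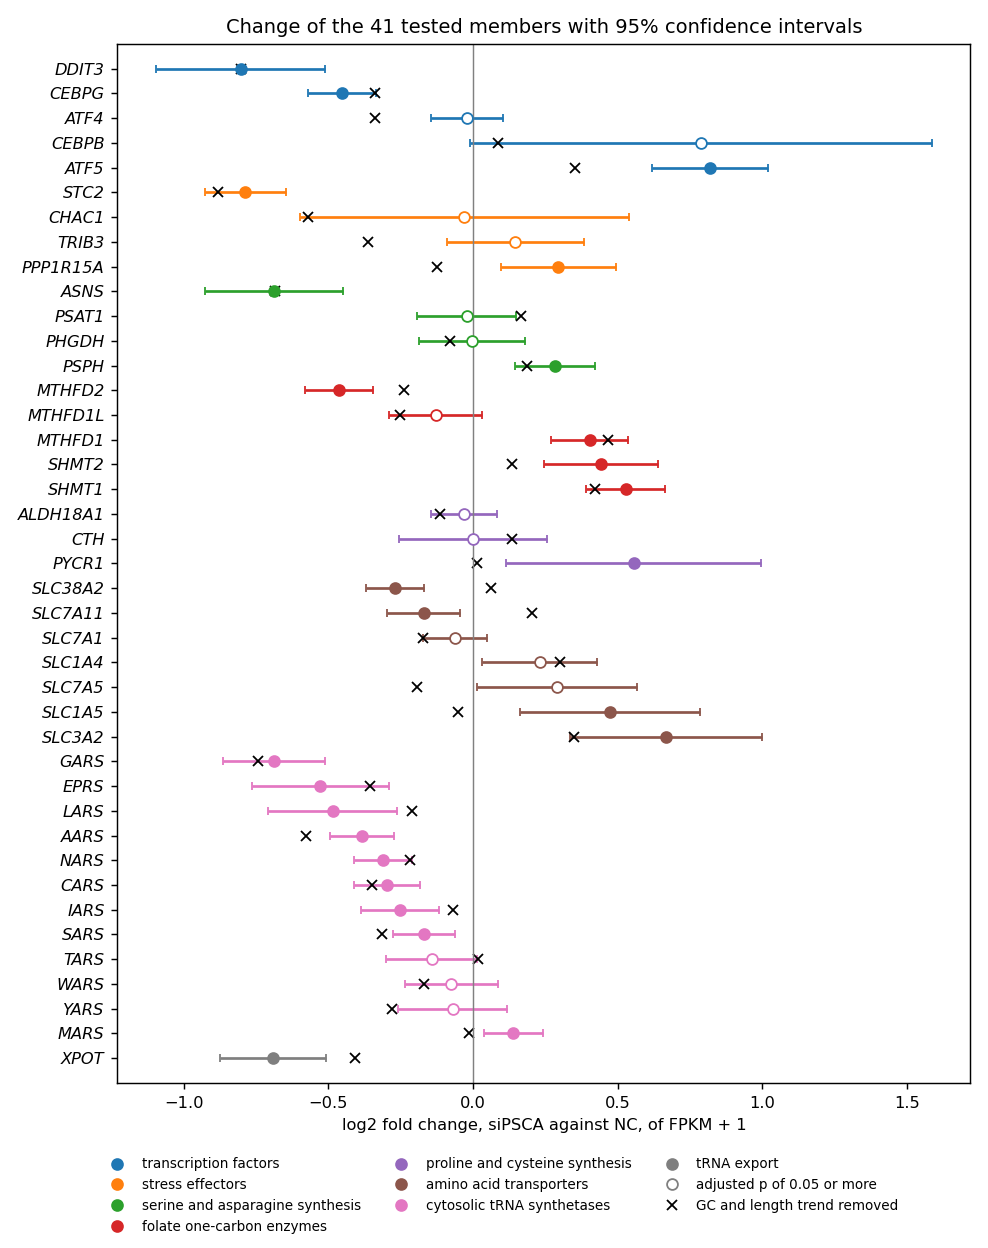
Log2 fold change (siPSCA against NC, of FPKM + 1) of the 41 tested members, ordered within their role; circles and bars are the limma estimates with 95% confidence intervals, filled where the adjusted p was under 0.05, and crosses are the GC-adjusted estimates. DDIT3, STC2, ASNS, GARS and XPOT lie near -0.7 to -0.8, most tRNA synthetases lie left of 0, and ATF5, SLC3A2 and the folate enzymes SHMT1, SHMT2 and MTHFD1 lie right of it.

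The transcription factors moved apart from each other. ATF4 mRNA (ENSG00000128272, chromosome 22) was at 112, 114 and 113 FPKM in NC and at 118, 109 and 108 FPKM in siPSCA. The groups overlapped, and the log2 fold change was -0.02 (95% confidence interval -0.15 to 0.11, limma adjusted p = 0.766). Its GC-adjusted log2 fold change was -0.34 with an adjusted p of 0.00938, so whether ATF4 mRNA is called lower depends on that adjustment.

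DDIT3, which encodes CHOP, the factor linked to cell death in prolonged stress, fell. It had 8.79, 9.09 and 9.46 FPKM in NC and 5.83, 3.92 and 4.79 FPKM in siPSCA, so every siPSCA library lay below every NC library. The log2 fold change was -0.80 ± 0.12 (SE, adjusted p = 0.00341), and it was -0.80 after GC adjustment as well. On chromosome 12, 355 exonic bases of DDIT3 (27.2%) overlap exons of MARS on the opposite strand, and MARS had 20527 reads over all libraries against 947 for DDIT3. MARS rose by 0.14 on the log2 scale (limma adjusted p = 0.0339) and had -0.01 after GC adjustment. Whether the counting used strand is not given in the sources used here, and the part of shared reads in the values of DDIT3 was not tested.

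ATF5, a relative of ATF4 that takes part in the mitochondrial stress response, went the other way. Its levels were 4.53, 4.02 and 3.62 FPKM in NC and 8.24, 7.43 and 8.03 FPKM in siPSCA. The mean was 1.95-fold higher, with no overlap and a log2 fold change of 0.82 ± 0.08 (SE, adjusted p = 0.00122). GC adjustment left a log2 fold change of 0.35 (adjusted p = 0.0105). Exons of NUP62 on the opposite strand cover 21.2% of the exonic bases of ATF5, and NUP62 also rose, from 13.2 to 19.6 FPKM (adjusted p = 0.00269), so reads of both genes may be mixed if strand was not used.

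CEBPG and CEBPB encode C/EBP partners of ATF4. CEBPG fell from 19.5 ± 0.61 to 14.0 ± 0.37 FPKM (SD, n = 3 each), by 0.45 on the log2 scale with an adjusted p of 0.00141. CEBPB had 23.8, 22.4 and 9.38 FPKM in NC and 32.7, 29.9 and 28.8 FPKM in siPSCA. The groups did not overlap, but NC 3 stood far below NC 1 and NC 2, and the log2 fold change of 0.79 missed the threshold (adjusted p = 0.0887). Without NC 3 it was 0.38 with an adjusted p of 0.00395, and after GC adjustment it was 0.09 (adjusted p = 0.713). Its transcript has the highest GC content of all 44 members (66.2%).

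**Figure D2:**
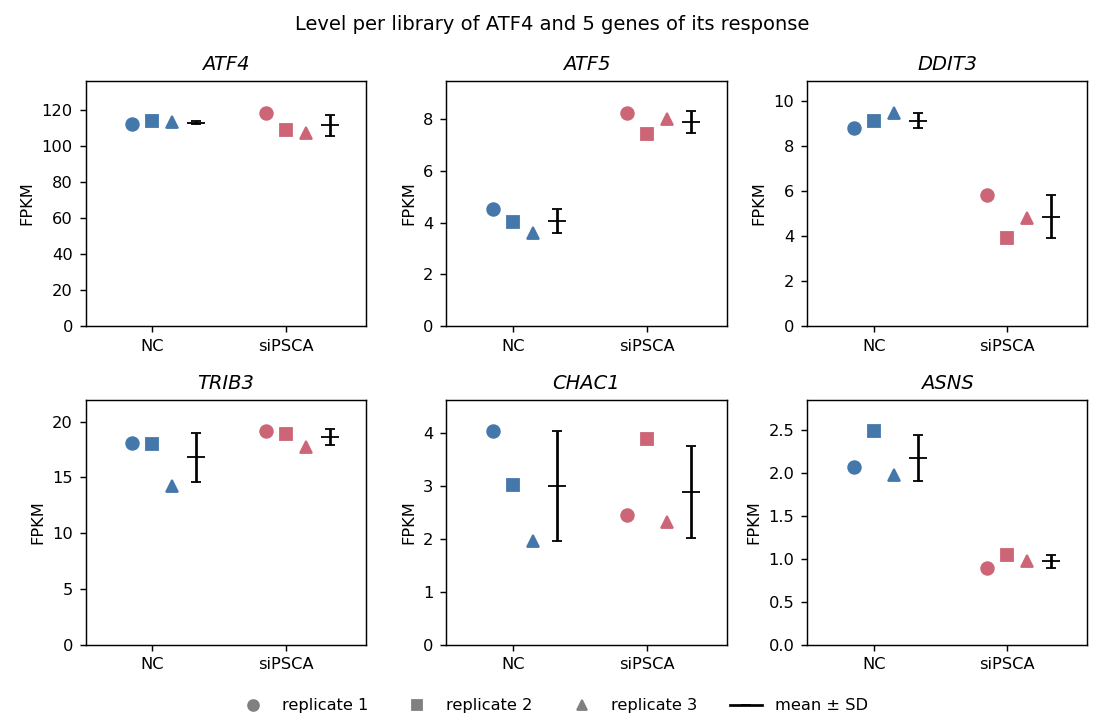
FPKM in each library of ATF4 and 5 genes of its response. Marker shapes give the replicate number, whose pairing across groups is not known, and the bar beside each group is the mean ± SD of 3 libraries. ATF4, TRIB3 and CHAC1 overlap between NC and siPSCA, whereas ATF5 is higher and DDIT3 and ASNS are lower in every siPSCA library.

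Among the stress effectors, STC2 fell and PPP1R15A rose (50% called, against 50.7% of all tested genes). After GC adjustment 3 of the 4 were lower and none was higher. STC2, a secreted glycoprotein induced by ATF4, was at 15.9, 16.7 and 17.6 FPKM in NC and at 9.53, 8.89 and 9.47 FPKM in siPSCA. This was a log2 fold change of -0.79 ± 0.06 (SE, adjusted p = 0.000598), or -0.88 after GC adjustment, and the groups were far apart. TRIB3, a pseudokinase that binds ATF4 and CHOP and limits their activity, had 18.1, 18.0 and 14.3 FPKM in NC and 19.1, 18.9 and 17.8 FPKM in siPSCA. Its groups overlapped (log2 fold change 0.15, adjusted p = 0.253), while the GC-adjusted value was -0.36 with an adjusted p of 0.000956.

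CHAC1, which degrades glutathione and is strongly induced in amino acid deprivation, had 4.02, 3.01 and 1.95 FPKM in NC and 2.44, 3.88 and 2.32 FPKM in siPSCA. The libraries of both groups were interleaved, and the interval of the log2 fold change ran from -0.60 to 0.54, so changes of that size could not be detected. GC adjustment gave -0.57 (adjusted p = 0.0328). PPP1R15A, the regulatory subunit that brings protein phosphatase 1 to eIF2, had 12.7, 13.2 and 15.0 FPKM in NC and 18.0, 17.2 and 15.6 FPKM in siPSCA. It rose by 0.29 on the log2 scale (adjusted p = 0.0260), and GC adjustment gave -0.13 (adjusted p = 0.496). Its call was also lost when NC 1, NC 2, siPSCA 1 or siPSCA 2 was left out, with log2 fold changes from 0.25 to 0.36 over all libraries left out.

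Asparagine synthetase and the serine enzymes did not move together. ASNS, which makes asparagine from aspartate and glutamine and is a classical target of ATF4, was at 2.07, 2.49 and 1.98 FPKM in NC and at 0.889, 1.05 and 0.973 FPKM in siPSCA. The siPSCA mean was 0.445 of the NC mean, the lowest such ratio among the 41 members tested, with no overlap between the groups. On the log2(FPKM + 1) scale, which understates the change of such a low gene, the difference was -0.69 ± 0.10 (SE, adjusted p = 0.00292), and it was -0.69 after GC adjustment too. ASNS shares 44.6% of its exonic bases with a transcript on the same strand that is named AC079781.5 and had 132 reads over all libraries against 729 for ASNS, and that transcript was not lower in siPSCA (0.240 FPKM in NC and 0.346 FPKM in siPSCA).

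The serine pathway runs from PHGDH through PSAT1 to PSPH. PHGDH, which takes the first step, was at 8.74 ± 0.75 FPKM in NC and 8.70 ± 0.47 FPKM in siPSCA (SD, n = 3 each), with an interval of the log2 fold change from -0.19 to 0.18. PSAT1 was more abundant, at 49.6, 48.7 and 48.4 FPKM in NC and 53.3, 45.5 and 46.0 FPKM in siPSCA, again with overlap and an interval from -0.19 to 0.15. PSPH, which takes the last step, had 13.4, 14.0 and 14.4 FPKM in NC and 18.1, 16.4 and 17.1 FPKM in siPSCA. All siPSCA libraries lay higher, and PSPH rose by 0.28 ± 0.06 on the log2 scale (SE, adjusted p = 0.00850) and by 0.19 after GC adjustment (adjusted p = 0.0171). The PSPH call is uncertain in 1 respect, since the copy PSPHP1 took reads equal to 11.9% of those of PSPH and fell, from 25.5 to 13.7 FPKM (adjusted p = 0.00393).

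Of the 5 tested folate enzymes 3 rose and MTHFD2 fell (80% called, against 50.7% of all tested genes). SHMT1, the cytosolic serine hydroxymethyltransferase, was at 6.33, 6.76 and 6.63 FPKM in NC and at 10.3, 10.1 and 9.41 FPKM in siPSCA, a rise of 0.53 ± 0.06 on the log2 scale (SE, adjusted p = 0.00138). SHMT2, its mitochondrial counterpart, had 30.9, 31.7 and 26.1 FPKM in NC and 40.9, 41.6 and 38.7 FPKM in siPSCA. It rose by 0.44 (adjusted p = 0.00652), by 0.36 without NC 3 and by 0.13 after GC adjustment (adjusted p = 0.0318). MTHFD1, the cytosolic trifunctional enzyme, rose from 11.6 ± 0.59 to 15.6 ± 0.36 FPKM (SD, n = 3 each), by 0.40 on the log2 scale and by 0.47 after GC adjustment.

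MTHFD2, the mitochondrial dehydrogenase and cyclohydrolase that tumour cells express strongly, fell. It had 52.2, 51.4 and 52.9 FPKM in NC and 38.0, 35.8 and 38.9 FPKM in siPSCA. The log2 fold change was -0.46 ± 0.05 (SE, adjusted p = 0.00136) and -0.24 after GC adjustment (adjusted p = 0.00747). The ratio of MTHFD2 to MTHFD1 within a library went from 4.51 ± 0.17 in NC to 2.40 ± 0.10 in siPSCA (SD, n = 3 each, exact 2-sided permutation test p = 0.1, the smallest that 3 against 3 libraries allow). MTHFD1L, the mitochondrial formate-producing enzyme, overlapped between the groups (16.9 ± 1.06 and 15.4 ± 0.81 FPKM, SD, n = 3 each), and the limma adjusted p was 0.15, or 0.0214 with a log2 fold change of -0.25 after GC adjustment.

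In proline and cysteine synthesis 1 of 3 tested genes was called (33.3%, against 50.7% of all tested genes). PYCR1, which takes the last step of proline synthesis in mitochondria, had 49.6, 48.4 and 31.0 FPKM in NC and 64.9, 64.7 and 57.6 FPKM in siPSCA. NC 3 stood apart from the other NC libraries, as it did for CEBPB. The log2 fold change was 0.56 ± 0.18 (SE, adjusted p = 0.0431), it was 0.34 without NC 3 (adjusted p = 0.00517), and it was 0.01 after GC adjustment (adjusted p = 0.908). The call was also lost without any 1 of the 3 siPSCA libraries.

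ALDH18A1, which makes the precursor that PYCR1 later reduces, was at 40.6, 41.3 and 42.3 FPKM in NC and at 40.2, 39.2 and 42.1 FPKM in siPSCA, with an interval from -0.15 to 0.08. CTH, which releases cysteine from cystathionine, was at 3.94, 3.31 and 3.90 FPKM in NC and at 4.16, 3.87 and 3.14 FPKM in siPSCA, with an interval from -0.26 to 0.25. Both pairs of groups overlapped. With CBS at or near 0 reads in all libraries, transcripts of the enzyme before CTH were not detectable beyond the 3 reads that a count of 0 allows in NC.

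The transporters were led by SLC3A2, the heavy chain that carries the light chains SLC7A5 and SLC7A11 to the plasma membrane. Of the 7 transporters 2 rose and 2 fell (57.1% called, against 50.7% of all tested genes), and 2 of these 4 calls were left when any 1 siPSCA library was left out. SLC3A2 was at 33.0, 31.3 and 23.0 FPKM in NC and at 48.1, 47.9 and 43.1 FPKM in siPSCA. It rose by 0.67 ± 0.14 on the log2 scale (SE, adjusted p = 0.00926), by 0.51 without NC 3 and by 0.35 after GC adjustment (adjusted p = 0.0148).

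The light chains did not follow it to the same extent. SLC7A5 (LAT1), which imports leucine and other large neutral amino acids, had 67.4, 66.9 and 50.7 FPKM in NC and 77.0, 74.5 and 73.4 FPKM in siPSCA, and its log2 fold change of 0.29 missed the threshold (adjusted p = 0.0753). It was called without NC 3 (0.16, adjusted p = 0.0105) and was lower after GC adjustment (-0.19, adjusted p = 0.00584). SLC7A11 (xCT), which imports cystine in exchange for glutamate, was at 14.6 ± 0.46 FPKM in NC and 12.8 ± 0.47 FPKM in siPSCA (SD, n = 3 each). It fell by 0.17 on the log2 scale (adjusted p = 0.0342), but rose by 0.20 after GC adjustment (adjusted p = 0.0191), the 1 member called in opposite directions. Its transcript has the lowest GC content of the members (35.4%), and its call was lost when NC 1, NC 2, siPSCA 1, siPSCA 2 or siPSCA 3 was left out.

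Within each library, the ratio of SLC7A5 to SLC3A2 went from 2.13 ± 0.08 to 1.62 ± 0.08 and that of SLC7A11 to SLC3A2 from 0.513 ± 0.108 to 0.277 ± 0.021 (SD, n = 3 each, exact 2-sided permutation test p = 0.1 for both). With the ratios of MTHFD2 to MTHFD1 and of DDIT3 to ATF4 these were 4 ratios, each without overlap and each with a Benjamini-Hochberg adjusted p of 0.1. These ratios are of unadjusted FPKM. The GC-adjusted log2 fold changes were 0.35 for SLC3A2, 0.20 for SLC7A11 and -0.19 for SLC7A5, so SLC7A11 and SLC3A2, whose transcripts differ in GC content (35.4% and 57.4%), lay closer together than before it. The ratio of DDIT3 to ATF4 was 0.0806 ± 0.0026 in NC and 0.0433 ± 0.0067 in siPSCA.

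SLC1A5 (ASCT2), a glutamine and neutral amino acid exchanger, had 37.8, 37.4 and 27.2 FPKM in NC and 48.4, 47.6 and 45.9 FPKM in siPSCA. It rose by 0.47 (adjusted p = 0.0235), by 0.32 without NC 3, and had -0.05 after GC adjustment (adjusted p = 0.299). Its call was lost when any 1 siPSCA library was left out. SLC38A2 (SNAT2), which accumulates neutral amino acids with sodium and is induced by their lack, was the most abundant of the 7 transporters and fell from 199 ± 2.97 to 165 ± 2.94 FPKM (SD, n = 3 each), by 0.27 on the log2 scale, and had 0.06 after GC adjustment (adjusted p = 0.363). SLC1A4 (adjusted p = 0.0561) and SLC7A1 (adjusted p = 0.287), which carry neutral and cationic amino acids, were not called, and after GC adjustment SLC1A4 was higher (0.30, adjusted p = 0.0339) and SLC7A1 lower (-0.17, adjusted p = 0.00895).

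The cytosolic tRNA synthetases, which attach amino acids to their tRNAs, were the largest role and the one with the most members called in 1 direction. Of 12, 8 fell, 1 rose and 3 were not called, with a median log2 fold change of -0.27, where 24.2% of all genes were lower. After GC adjustment 7 were lower, none was higher and the median was -0.25. The FPKM of all 12 summed to 451, 463 and 504 in NC and to 378, 377 and 381 in siPSCA, with no overlap (exact 2-sided permutation test p = 0.1, the smallest possible with n = 3 against 3). This sum leaves out the cytosolic synthetases that are not members. Over all 20 cytosolic synthetases 10 were lower and 5 higher, and the median log2 fold change was -0.16. In bulk RNA, fewer cells of a type and less RNA per cell cannot be told apart.

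GARS, which charges glycine, fell furthest in the log2 measure. It lies on chromosome 7 and had 61.1, 65.1 and 72.7 FPKM in NC against 39.1, 41.3 and 41.5 FPKM in siPSCA, a log2 fold change of -0.69 ± 0.07 (SE, adjusted p = 0.00136) and of -0.74 after GC adjustment. EPRS, which charges both glutamate and proline, had 47.5, 48.1 and 59.7 FPKM in NC and 35.3, 33.7 and 37.3 FPKM in siPSCA. Its log2 fold change was -0.53 ± 0.10 (SE, adjusted p = 0.00665), with -0.42 without NC 3, the highest of the libraries, and -0.36 after GC adjustment. LARS, which charges leucine and also senses it for mTORC1, was at 24.0, 25.4 and 30.7 FPKM in NC and at 18.8, 18.6 and 18.7 FPKM in siPSCA. Its log2 fold change was -0.48 ± 0.09 (SE, adjusted p = 0.00723), and -0.21 after GC adjustment (adjusted p = 0.0396). In all 3 genes every siPSCA library lay below every NC library.

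The others that fell were AARS (alanine, from 61.9 to 47.2 FPKM, log2 fold change -0.38), NARS (asparagine, from 53.9 to 43.3 FPKM, -0.31), CARS (cysteine, from 9.92 to 7.89 FPKM, -0.30), IARS (isoleucine, from 52.0 to 43.5 FPKM, -0.25) and SARS (serine, from 35.4 to 31.3 FPKM, -0.17). AARS and SARS changed more after GC adjustment (-0.58, adjusted p = 0.000774, and -0.32, adjusted p = 0.00125), and IARS was no longer called (-0.07, adjusted p = 0.146). The IARS call was also lost without siPSCA 1, and the SARS call without NC 2, siPSCA 1, siPSCA 2 or siPSCA 3. MARS, which charges methionine, rose from 26.6 ± 0.38 to 29.4 ± 0.48 FPKM (SD, n = 3 each), by 0.14 on the log2 scale (adjusted p = 0.0339), and had -0.01 after GC adjustment (adjusted p = 0.823). Its call was lost without any 1 library other than NC 3. TARS (threonine), WARS (tryptophan) and YARS (tyrosine) were not called, and the intervals of their log2 fold changes ran from -0.30 to 0.01, from -0.23 to 0.09 and from -0.26 to 0.12.

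**Figure D3:**
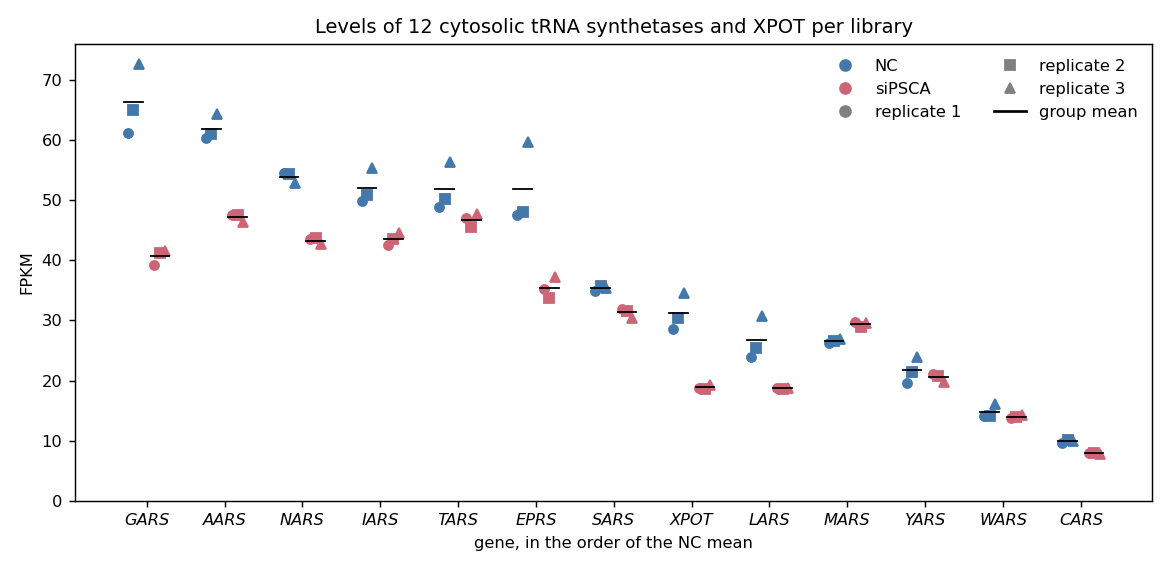
FPKM per library of the 12 cytosolic tRNA synthetases and XPOT, in the order of their NC means; blue and red points are NC and siPSCA libraries, shapes give the replicate number and black lines the group means. Both groups are separate for GARS, AARS, NARS, IARS, EPRS, SARS, XPOT, LARS, CARS and TARS with siPSCA lower, and for MARS with siPSCA higher, and NC 3 is the highest library in several genes.

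The order of their FPKM values also shifted. In NC the 12 ran from GARS at 66.3 ± 5.91 FPKM to CARS at 9.92 ± 0.25 FPKM (SD, n = 3). GARS overlapped with AARS, and NARS, IARS, TARS and EPRS, all between 51.8 and 53.9 FPKM, overlapped with their neighbours, as did LARS and MARS, so 5 of the 11 neighbouring pairs could not be put in order. In siPSCA, AARS stood first at 47.2 ± 0.69 FPKM with TARS overlapping it, and GARS stood in place 5 at 40.7 ± 1.31 FPKM. LARS fell below YARS. It also lay below MARS, as it already did in NC 1 and NC 2 (24.0 and 25.4 against 26.2 and 26.6 FPKM). Only in NC 3 was LARS above MARS (30.7 against 26.9 FPKM). In siPSCA only 2 of the 11 neighbouring pairs overlapped. Part of the overlap in NC came from NC 3, since in NC 1 and NC 2 alone GARS lay above AARS. Levels of different genes compare only roughly.

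XPOT, the exportin that carries mature tRNA out of the nucleus, fell as far as GARS. It had 28.6, 30.5 and 34.6 FPKM in NC and 18.7, 18.7 and 19.3 FPKM in siPSCA, with no overlap. The log2 fold change was -0.69 ± 0.08 (SE, adjusted p = 0.00146), -0.62 without NC 3 and -0.41 after GC adjustment (adjusted p = 0.00147).

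The remaining 11 cytosolic synthetases and scaffolds of the multi-tRNA synthetase complex gave 5 higher, 3 lower and 3 not called. This was 72.7% called, against 50.7% of all tested genes, with a median of 0.03. After GC adjustment 6 were higher and 1 lower, with a median of 0.17, and the 8 calls became 4 without siPSCA 1 or siPSCA 2 and 5 without siPSCA 3. VARS, which charges valine, rose from 31.4 to 55.7 FPKM (log2 fold change 0.82, adjusted p = 0.00223, and 0.30 after GC adjustment), and the scaffold AIMP2 rose by 0.80 (adjusted p = 0.0117). DARS, which charges aspartate, fell by 0.62 (adjusted p = 0.00341, -0.41 after GC adjustment) and RARS, which charges arginine, by 0.32 (adjusted p = 0.0408, lost without any 1 siPSCA library and at -0.13 with an adjusted p of 0.216 after GC adjustment). Over all 20 cytosolic synthetases, 10 were lower, 5 higher and 5 not called. The 8 enzymes held in the multi-tRNA synthetase complex, a list made after the values were seen, had 5 lower, 2 higher and 1 not called, and 3 lower after GC adjustment.

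The 17 mitochondrial synthetases, encoded by nuclear genes, gave 6 higher, 2 lower and 9 not called (47.1% called, against 50.7% of all tested genes). Their median was 0.16, or 0.05 after GC adjustment with 4 higher and 2 lower. The 8 calls became 5 without any 1 siPSCA library. MARS2 rose by 0.60 (adjusted p = 0.0155, lost without siPSCA 3) and VARS2 by 0.55 (adjusted p = 0.0212, lost without any 1 siPSCA library and at 0.21 with an adjusted p of 0.0727 after GC adjustment). IARS2 fell by 0.70 (adjusted p = 0.000755) and RARS2 by 0.35 (adjusted p = 0.00637, -0.16 after GC adjustment). For 10 amino acids a synthetase of the list has a separate mitochondrial partner, and these pairs were set side by side after their values were seen. AARS, CARS and LARS fell while their partners AARS2, CARS2 and LARS2 rose, IARS and IARS2 both fell, MARS and MARS2 both rose, and in the other 5 pairs at most 1 gene was called. After GC adjustment AARS2 (0.05, adjusted p = 0.633) and LARS2 (0.10, adjusted p = 0.108) were no longer called, whereas CARS2 was (0.23, adjusted p = 0.0415). Without the adjustment, the call of CARS2 was lost without siPSCA 1 or siPSCA 2, and that of LARS2 without any 1 library other than NC 3.

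**Figure D4:**
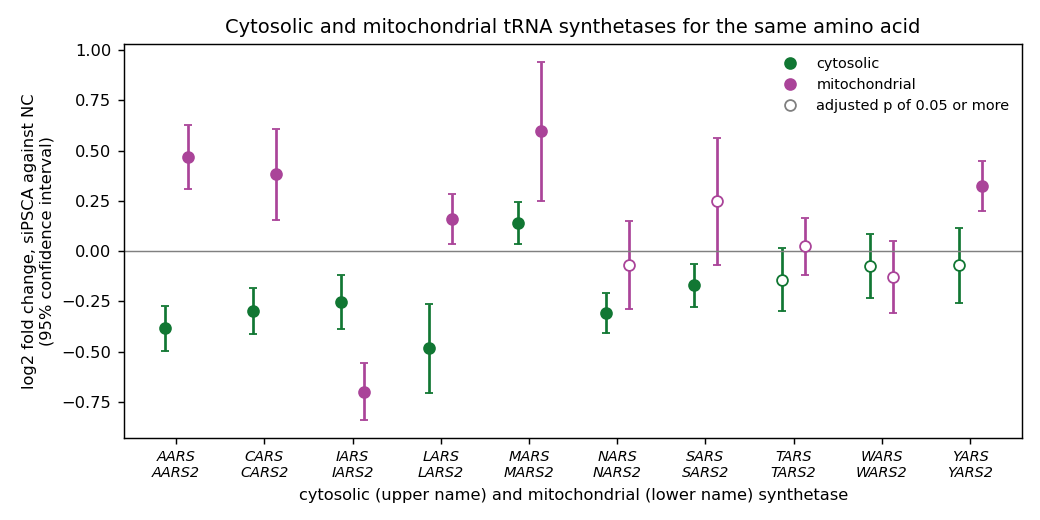
Log2 fold change (siPSCA against NC, of FPKM + 1) with 95% confidence intervals for 10 cytosolic tRNA synthetases and their mitochondrial partners; filled points had an adjusted p under 0.05. The cytosolic genes AARS, CARS and LARS lie below 0 with their partners above it, and IARS and IARS2 both lie below 0.

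Upstream of ATF4, 15 genes of the eIF2 kinases, eIF2 and eIF2B gave 3 higher, 6 lower and 6 not called. This was 60% called, against 50.7% of all tested genes, with a median of -0.009. After GC adjustment 2 were higher and 5 lower, with a median of 0.08, and the 9 calls became 5 without siPSCA 1 or siPSCA 2. EIF2AK3, which encodes PERK, fell by 0.57 (adjusted p = 0.00136) and EIF2S2, the beta subunit of eIF2, by 0.58 (adjusted p = 0.00788). GCN1, which activates the kinase GCN2, rose by 0.29 (adjusted p = 0.00496) and EIF2B4 by 0.21 (adjusted p = 0.0313, lost without NC 1 or any 1 siPSCA library), and neither was called after GC adjustment (0.08 with an adjusted p of 0.160, and 0.12 with 0.129).

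Of 15 further genes that respond to ATF4 or CHOP, 13 were tested, with 4 higher, 3 lower and 6 not called. This was 53.8% called, against 50.7% of all tested genes. After GC adjustment 2 were higher and 7 lower, and 11 were called without NC 3, against 7 with it. The 2 furthest falls were those of ERO1A, an oxidase of the endoplasmic reticulum, from 46.1 to 15.5 FPKM (log2 fold change -1.51, adjusted p = 0.000233), and of VEGFA, an angiogenic growth factor, from 10.7 to 4.28 FPKM (-1.15, adjusted p = 0.000432). Both genes also respond to hypoxia. SESN2, an inhibitor of mTORC1 in leucine lack, rose by 0.74 (adjusted p = 0.00376, 0.29 after GC adjustment) and the glycine transporter SLC6A9 by 0.61 (adjusted p = 0.00199, 0.20 with an adjusted p of 0.13 after GC adjustment).

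Of 15 other amino acid transporters 9 were tested, with 4 higher and 4 lower (88.9% called, against 50.7% of all tested genes). After GC adjustment 3 were higher and 2 lower, and without siPSCA 2 the 8 calls became 4. SLC36A1 and SLC7A6 rose by 0.48 and 0.45, and SLC36A4 and SLC1A1 fell by 0.71 and 0.30 (adjusted p from 0.000914 to 0.0150, with SLC36A4 at -0.34 after GC adjustment and the call of SLC1A1 lost without siPSCA 2). Of 25 other folate and amino acid enzymes 22 were tested, with 5 higher, 7 lower and 10 not called (54.5% called). After GC adjustment 6 were higher and 6 lower, and without siPSCA 1 the 12 calls became 6. PYCR3, a cytosolic relative of PYCR1, rose by 1.14 (adjusted p = 0.0155, lost without siPSCA 1 or siPSCA 2, and 0.53 after GC adjustment). ALDH4A1, which takes the second step of proline breakdown, rose by 0.94 (adjusted p = 0.00220, 0.46 after GC adjustment). GCSH of the glycine cleavage system fell by 0.63 (adjusted p = 0.00549, -0.42 after GC adjustment).

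The promoter core occurred in members of both directions. Of the 11 members with the core, 2 were higher, 5 lower and 4 not called, and of the 25 matched members without it, 5 were higher, 9 lower, 10 not called and 1 not tested. Of all tested genes, 26.6% were higher and 24.2% lower. Among the windows printed above, ASNS, AARS, CARS, IARS and NARS fell, SLC3A2 and MARS rose, and CHAC1 and TARS were not called. MTHFD1L and SLC7A1, whose windows are not printed, were not called either.

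The members followed the GC trend of the libraries. Over the 41 tested members log2 fold change and GC content had a Spearman rho of 0.65, given as a description over genes that share the same 6 libraries. It was 0.009 after GC adjustment, which is made to take this trend out, so that value is no separate result. The adjustment changed the sign for 10 of the 41 members. The genes that kept both their call and a change over 0.5 on either side were DDIT3 (GC content 49.7%), STC2 (51.7%), ASNS (47.0%) and GARS (48.6%). All tested genes had a median GC content of 48.1%. The adjustment moves genes of middling GC content least, so the GC content of these 4 follows in part from the method. The share of the trend in the other changes was not tested.

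**Figure D5:**
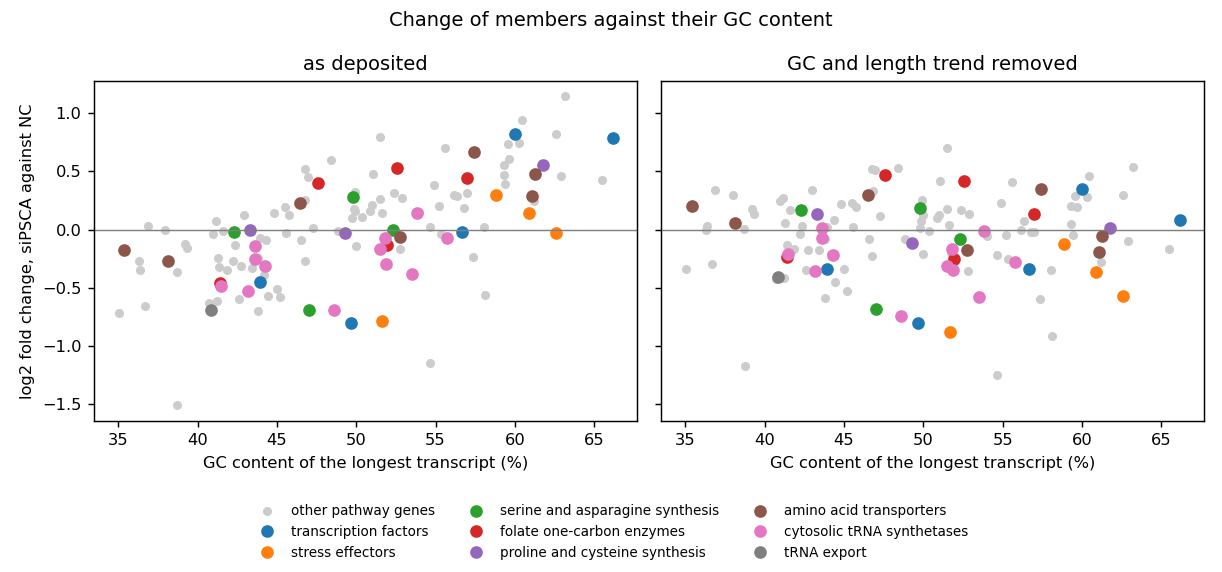
Log2 fold change (siPSCA against NC) against GC content of the longest transcript (%), for the 41 members coloured by role and for the other pathway genes in grey, before (left) and after (right) GC adjustment. On the left the points rise from SLC7A11 at 35.4% GC to CEBPB at 66.2%, and on the right they do not, since the adjustment takes that trend out. DDIT3, STC2, ASNS and GARS, of middling GC content, stay near -0.7 to -0.9 in both panels.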

How the data were processed

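RNA of HCT116SCs was sequenced in 6 libraries (3 NC, 3 siPSCA). The authors deposited FPKM values for 58735 genes, whose identifiers, starts and ends are those of GENCODE release 29 on GRCh38. Aligner, counting program and use of strand are not given in the sources used here. FPKM times gene length was a whole multiple of 1 step for 100% of values (tolerance 0.02), so reads were recovered. They served for depth and for limma-voom, which called 28 members, against 26 in the main fit.

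Groups come from the sample labels. The titles of 2 libraries give a number other than 116 after HCT (libraries 2 and 3 of siPSCA), but the remaining labels of both libraries name HCT116. The linear model of limma 3.58.1 (R 4.3.3, eBayes with trend) was fitted to log2(FPKM + 1) of the 13796 genes whose mean FPKM reached 1, with Benjamini-Hochberg adjustment over all of them. All adjusted p-values of genes are those of limma. GC adjustment fitted natural splines (5 degrees of freedom) to each library's deviations from the gene means, for the 13792 genes with a GC value. The splines were of the GC content of the longest transcript and of the log2 of the deposited gene length. The fit was tested on simulated reads with a common dispersion and no GC trend between libraries. That test does not cover the GC trend seen here. Figures and tables were made with matplotlib 3.10.9, numpy 2.4.6 and pandas 2.3.3 under Python 3.11.15. Intervals cover 95%, and floors (3 reads) cover counting error only.

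Members, roles and gene lists were chosen with earlier results of these data known. By rule, every member is accounted for, with values in every library for ATF4, ATF5, DDIT3, TRIB3, CHAC1, ASNS and the 3 tested members with the largest absolute change in each role. Of each further list at most the 2 largest rises and 2 largest falls past the threshold are named, and 1 gene that the rule would name is not reported here. Alternatives were a pseudocount of 0.1, no FPKM minimum or one of 5, TPM, quantile normalization, limma-voom, GC adjustment, a replicate block, and leaving out each library.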

Additional observations from a re-analysis of the deposited data

How the results depend on the processing

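Of the 41 tested members, 26 passed the adjusted threshold, and the alternatives gave 22 to 28, with 19 to 28 when 1 library was left out. Higher members numbered 10, with 6 under the replicate block combined with GC adjustment and 6 to 12 when 1 library was left out, the lowest without siPSCA 1 or siPSCA 2. Members past unadjusted p and fold change numbered 10, with 6 after GC adjustment, with or without the replicate block. The median log2 fold change of -0.06 was -0.031 without an FPKM minimum, -0.11 with TPM, -0.13 with quantile normalization, -0.041 with limma-voom and -0.17 after GC adjustment, with or without the replicate block. All had the same sign.

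Whether the replicate numbers pair the libraries cannot be told from 3 libraries per group. Deviations from the group means correlated at 0.096, 0.013 and 0.134 between libraries of the same number. Between libraries of different numbers they correlated at -0.131 to 0.042, and NC 2 correlated better with siPSCA 1 (0.036) than with siPSCA 2. The replicate block alone left 23 members called.

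The sign of a log2 fold change turned after GC adjustment, with or without the block, for TRIB3 (-0.36), PPP1R15A (-0.13), PSAT1 (0.17), CTH (0.13), SLC7A11 (0.20), SLC7A5 (-0.19), SLC1A5 (-0.050), SLC38A2 (0.061), MARS (-0.014) and TARS (0.016). With limma-voom it turned for ATF4 (0.0064), PHGDH (0.024), PSAT1 (0.0039) and CTH (0.022). Leaving out 1 library turned it for ATF4 (range -0.063 to 0.0058), CHAC1 (-0.23 to 0.15), PHGDH (-0.066 to 0.042), PSAT1 (-0.094 to 0.018) and CTH (-0.068 to 0.091), none of which was called. The cause was not tested. PSCA, NUPR1 and CBS had too few reads for a fold change at this depth.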
